A study of Mus musculus with 16 samples.

Results

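Kidney tubule cells that are damaged by loss of blood flow, toxins or obstruction switch on a characteristic set of transcripts, and 8 of these tubular injury marker genes are described here: Havcr1, Lcn2, Krt20, Spp1, Vcam1, Sox9, Clu and Cryab. They were picked out by symbol in a table of 28971 genes, by a rule that uses no value of the table although earlier results of these data were known, and all 8 were found there and passed the filter on low counts. In edgeR's quasi-likelihood test between kidneys with induced tubular Hes1 deletion and controls, 0 of the 8 were called at an adjusted p under 0.05. Of the 15615 tested genes, 0.339% were called, 0.32% as higher and 0.0192% as lower in the Hes1-deleted kidneys. The libraries of the groups overlapped for 7 of the 8, where 7.01% of all tested genes did not overlap. The exception was Cryab, which was lower in every Hes1-deleted kidney than in every control.

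The markers act at different steps of the injury response. Havcr1 (kidney injury molecule 1) is a phosphatidylserine receptor with which damaged proximal tubule cells take up dying neighbours, Lcn2 (neutrophil gelatinase-associated lipocalin) is a secreted protein that binds iron-carrying siderophores, and Krt20 is an intermediate filament keratin. Sox9 is a transcription factor of regenerating tubule cells, and Vcam1 is an adhesion molecule for leukocytes that also marks tubule cells whose repair has stalled. Spp1 (osteopontin) is a secreted phosphoprotein of tubule cells, Clu (clusterin) is a secreted chaperone, and Cryab (alpha B crystallin) is a small heat shock protein of the cytoplasm. Havcr1, Lcn2, Krt20, Sox9 and Vcam1 are scarce in the healthy tubule, while Spp1, Clu and Cryab are also made there without damage.

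RNA came from whole kidneys of mice labelled Pax8-rtTA;TRE->Cre; Hes1 f/f, called Hes1 cKO (conditional knockout), and of littermates labelled as wild type controls. Pax8 drives the doxycycline-dependent activator in tubule and collecting duct epithelium, where doxycycline then switches on Cre and removes the floxed Hes1 gene, which leaves the gene in endothelium, stroma and immune cells. Which of these alleles the controls carried is not stated beyond their being wild type. Both groups, per the labels, drank 1 mg/mL doxycycline with 5% sucrose for 1 week from 3 weeks of age. By title there were 7 kidneys of Hes1 cKO mice, 3 from males and 4 from females, and 9 of controls, 6 from males and 3 from females, sizes that the series text gives the other way round. Of these, 3 columns named as mutant and 4 named as wild type are compared, numbered Hes1 cKO 1 to 3 and control 1 to 4 by their order in the table. The names do not say which titled mouse a column is, so the labels give neither the sex nor a shared litter for a library. Nothing in the labels says more about the separateness of the samples than that littermates were used, so p-values measure the spread between these libraries.

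Total counts were 16973931 to 20420422 per library, and levels are given as CPM, read counts scaled to library sizes adjusted by the TMM method. Hes1 averaged 18.1 ± 1.43 CPM in the Hes1 cKO group (SD, n = 3) and 55.6 ± 10.9 CPM in the control group (SD, n = 4), without overlap (edgeR adjusted p 0.00357). Xist reached 342 CPM in Hes1 cKO 3 and up to 367 CPM in control 3 and 4, and was at most 0.371 CPM in the other 4 libraries. The Y-linked gene Ddx3y had at most 1 read in those 3 and 661 to 1249 reads in the other 4, so the female pattern was seen in 1 of 3 Hes1 cKO and 2 of 4 control libraries. With the Xist level as a covariate, edgeR called 0 of the 8 markers. Transcripts of adrenal steroid synthesis (6 genes) summed to 50.7, 2.62 and 1067 CPM in Hes1 cKO 1 to 3 and to 796, 205, 3.13 and 4.20 CPM in control 1 to 4. With that sum as the covariate the count was again 0 of 8. Proximal tubule genes (7 genes), which define the labelled organ, summed to 7801 to 10794 CPM and none of them was at 0.

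The genes lie on 6 chromosomes of the GRCm38 build in GENCODE M21. Havcr1 (ENSMUSG00000040405) is at chromosome 11, 46735080 to 46779578, Krt20 (ENSMUSG00000035775) at chromosome 11, 99428403 to 99438150, and Sox9 (ENSMUSG00000000567) at chromosome 11, 112782224 to 112787760. Lcn2 (ENSMUSG00000026822) lies at chromosome 2, 32384633 to 32388252, Vcam1 (ENSMUSG00000027962) at chromosome 3, 116109949 to 116129688, and Spp1 (ENSMUSG00000029304) at chromosome 5, 104435118 to 104441050. Clu (ENSMUSG00000022037) lies at chromosome 14, 65968483 to 65981547, and Cryab (ENSMUSG00000032060) at chromosome 9, 50751325 to 50756636. No exon of Havcr1, Lcn2, Krt20, Sox9 or Clu shares bases with another annotated gene. An exon of Cryab overlaps Hspb2, its divergent neighbour on the other strand, exons of Spp1 overlap the transcript Gm42793 on the same strand, and exons of Vcam1 overlap the antisense transcript Gm43109, which is not in the table. The sources used here do not say whether counting used strand, so reads of such overlaps cannot be told apart. Hspb2 itself was at 0.445 to 1.10 CPM.

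Hes1 is a repressor that binds short DNA words, so the start sites of the members were read for them in RefSeq promoters of build GRCm38.p6, each 300 bases long (250 before and 50 after the start). Promoters were matched for 4 of the 8 genes (Havcr1 with 3 entries, Spp1 with 2, Lcn2 and Krt20 with 1 each). The 3 printed here are the upstream one of Spp1, the most abundant member, which holds a Hes1-type word, that of Krt20, which holds words of the heat shock factor, and that of Lcn2, which holds neither. All run 5′ to 3′ on the strand of the gene, with matches in capitals. The words searched on both strands were the N box CACNAG, the class C site CACGNG, the heat shock element (GAANNTTC or TTCNNGAA) and the AP-1 site TGANTCA, and CACGAG counts under both of the Hes1-type words.
Spp1, chr5:104434861-104435160, plus strand: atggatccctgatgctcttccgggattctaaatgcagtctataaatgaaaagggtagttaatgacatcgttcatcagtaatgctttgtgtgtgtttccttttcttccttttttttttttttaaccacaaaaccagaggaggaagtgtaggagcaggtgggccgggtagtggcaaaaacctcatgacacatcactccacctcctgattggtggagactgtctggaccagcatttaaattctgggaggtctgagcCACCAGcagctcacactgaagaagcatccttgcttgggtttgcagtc
Lcn2, chr2:32387690-32387989, minus strand: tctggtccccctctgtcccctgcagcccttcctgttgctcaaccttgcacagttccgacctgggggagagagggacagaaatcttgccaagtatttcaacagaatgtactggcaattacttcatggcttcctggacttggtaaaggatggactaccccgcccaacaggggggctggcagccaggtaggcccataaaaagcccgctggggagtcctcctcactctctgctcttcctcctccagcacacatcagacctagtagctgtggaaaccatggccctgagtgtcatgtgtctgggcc
Krt20, chr11:99438104-99438403, minus strand: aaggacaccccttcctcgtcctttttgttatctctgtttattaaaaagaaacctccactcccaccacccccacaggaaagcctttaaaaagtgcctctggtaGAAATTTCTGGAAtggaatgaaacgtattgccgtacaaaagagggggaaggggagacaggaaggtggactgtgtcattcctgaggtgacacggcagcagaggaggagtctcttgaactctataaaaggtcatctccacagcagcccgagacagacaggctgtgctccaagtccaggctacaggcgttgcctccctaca
The printed Spp1 entry held 1 N box, 3 bases after the first base of the start, a word found in 42.5% of all 32851 promoters. The other Spp1 entry, chr5:104435942-104436241, held none of the 4 motifs. The Krt20 entry held 2 overlapping heat shock elements, a motif of 15.1% of promoters, starting 148 and 143 bases before the start. The Lcn2 entry held none of the 4 motifs. Of the 3 Havcr1 entries, 1 held an N box together with a heat shock element, 1 held an AP-1 site (7.81% of promoters) and 1 held none. None of the 7 matched entries held a class C site (27.5% of promoters). The promoters of Vcam1, Sox9, Clu and Cryab were not searched. A match is a word in the sequence and was not tested as a binding site.

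The 8 genes fell into an abundant and a scarce set. Per kilobase of exon, a scale for a rough comparison of different genes, Spp1 was highest in control at 447 ± 141 CPM per kb (SD, n = 4). The length joins the exons of all annotated transcripts of a gene, so it can exceed that of any single transcript, and the order depends on it. Cryab followed at 109.7 ± 15.9 and Clu at 81.5 ± 36.5 CPM per kb. The other 5 genes were far lower. Lcn2 was at 1.24 ± 0.50, Krt20 at 0.941 ± 0.376 and Vcam1 at 0.793 ± 0.319 CPM per kb, and Havcr1 at 0.610 ± 0.147 and Sox9 at 0.440 ± 0.119 CPM per kb closed the order. Clu exceeded Lcn2 by 65.7-fold on this scale, and Spp1 exceeded Cryab by 4.07-fold, both in all 7 libraries. The control ranges of all 5 other neighbouring pairs in the order overlapped, and Cryab was above Clu in 6 of 7 libraries. Spp1, Clu and Cryab together made up 97.9% to 99.0% of the summed CPM of the 8 genes in every library. That sum was 970, 664 and 974 CPM in Hes1 cKO 1 to 3 and 1067, 1007, 1712 and 989 CPM in control 1 to 4. All 3 mutant sums lay below the control sums, the closest being Hes1 cKO 3 and control 4. Of single tested genes, 3.29% were lower in Hes1 cKO without overlap. Spp1 is the largest term in each sum, and its own levels overlapped between the groups.

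**Figure D1:**
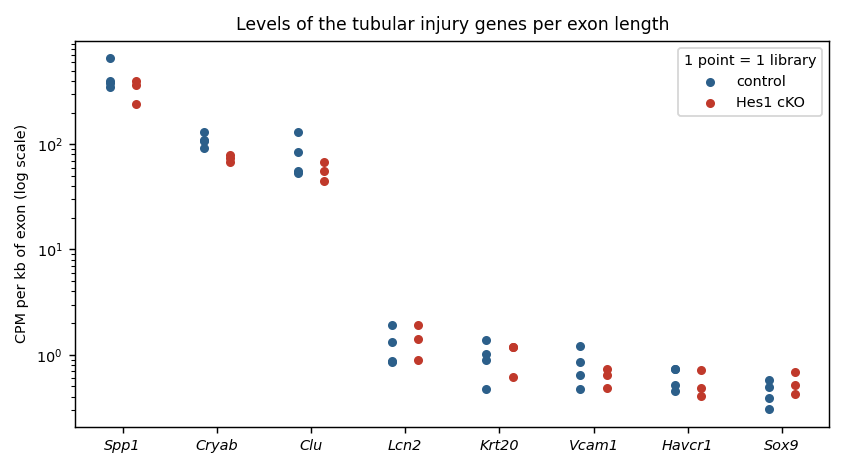
Level of each tubular injury gene in CPM per kb of exon on a log axis, ordered by the control mean, with 1 point for each of the 4 control and 3 Hes1 cKO libraries. Spp1, Cryab and Clu lie between 44.9 and 656 CPM per kb, and the other 5 genes between 0.304 and 1.94 CPM per kb.

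The classical sensors of proximal and distal tubule damage were scarce and similar in range in both groups. Havcr1 was at 1.64, 0.940 and 1.12 CPM in Hes1 cKO 1, 2 and 3. Control 1, 2, 3 and 4 stood at 1.20, 1.69, 1.70 and 1.04 CPM. Hes1 cKO 1 stood with control 2 and control 3 at the top, and the lowest library was Hes1 cKO 2. These values rest on 19 to 32 reads per library. The edgeR estimate was -0.19 on the log2 scale with an SE of 0.31 (adjusted p 0.981) and a 95% interval from 0.535-fold to 1.43-fold. It was -0.46 without Hes1 cKO 1, -0.03 without Hes1 cKO 2 and -0.09 without control 2 or control 3.

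Lcn2 was at 5.08, 3.71 and 2.35 CPM in Hes1 cKO 1, 2 and 3. In the controls, in the same order of number, the values were 2.29, 5.03, 3.46 and 2.24 CPM. The highest mutant and the highest control library differed by little, and so did the lowest of each group. In edgeR this came to 0.19 on the log2 scale, SE 0.35 (adjusted p 0.987), with an interval from 0.662-fold to 1.97-fold. Leaving out Hes1 cKO 1 turned the sign, to -0.10. Lcn2 is also a granule protein of neutrophils, and of 6 neutrophil genes 5 (S100a8, S100a9, Ly6g, Mpo and Retnlg) were at 0 in at least 1 library. The summed level of the 6 was 0.235 to 1.22 CPM in Hes1 cKO and 1.20 to 1.54 CPM in control.

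Krt20, which the umbrella cells of the urothelium also make, was at 2.27, 1.19 and 2.29 CPM in Hes1 cKO 1, 2 and 3. In control 1, 2, 3 and 4 it was at 0.918, 1.96, 1.70 and 2.67 CPM, so that both the lowest and the highest library were controls. edgeR put the difference at 0.07 in log2 units, SE 0.38 (adjusted p 0.996), with an interval from 0.582-fold to 1.90-fold. It turned negative without Hes1 cKO 1, Hes1 cKO 3 or control 1 (-0.07, -0.07 and -0.14). The 8 urothelial genes, among them the uroplakins, summed to 85.0, 51.0 and 62.8 CPM in Hes1 cKO and to 52.2 to 61.5 CPM in control. Hes1 cKO 1 was highest for them, and their part in the Krt20 level was not tested. In whole-kidney RNA, fewer cells of a type and less RNA per cell cannot be told apart.

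The genes of regenerating and of stalled tubule cells, Sox9 and Vcam1, did not pass either. Sox9 was at 2.86, 2.13 and 1.76 CPM in Hes1 cKO 1, 2 and 3. Across control 1 to 4 it took the values 1.61, 2.38, 2.03 and 1.26 CPM. Hes1 cKO 1 was highest and control 4 lowest, with the libraries between them intermixed. The difference was 0.31 in log2 units, SE 0.29 (edgeR adjusted p 0.965), with an interval from 0.787-fold to 1.94-fold. It was 0.10 without Hes1 cKO 1, 0.16 without control 4 and 0.46 without control 2.

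Vcam1 was at 6.56, 5.74 and 4.29 CPM in Hes1 cKO 1, 2 and 3. Control libraries 1 to 4 gave 4.19, 7.52, 10.8 and 5.68 CPM. Control 3 stood highest and control 1 lowest. On the log2 scale edgeR gave -0.35, SE 0.30 (adjusted p 0.962), with an interval from 0.490-fold to 1.26-fold. It gave -0.07 without control 3, -0.20 without Hes1 cKO 3 and -0.53 without control 1. Endothelial genes, which mark another site of Vcam1, summed to 189 to 239 CPM over 5 genes in Hes1 cKO and to 217 to 235 CPM in control.

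Spp1 and Clu, the secreted proteins of tubule cells, had lower means in Hes1 cKO without passing the test. Spp1 was at 609, 394 and 653 CPM in Hes1 cKO 1, 2 and 3. For control 1 to 4 the levels were 573, 661, 1081 and 629 CPM. Control 3 was far above the rest and Hes1 cKO 2 below them, while the other 5 libraries lay within 573 to 661 CPM. Hes1 cKO averaged 552 ± 138 CPM (SD, n = 3) and control 736 ± 233 CPM (SD, n = 4), or -0.41 on the log2 scale with an SE of 0.24 (edgeR adjusted p 0.934). It was -0.17 without control 3, and -0.22 without Hes1 cKO 2.

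Clu was at 232, 154 and 192 CPM in Hes1 cKO 1, 2 and 3. Among the controls, from 1 to 4, it was at 291, 191, 454 and 185 CPM. Control 2 and control 4 lay among the mutants, and control 3 again stood highest. Hes1 cKO averaged 193 ± 39.1 CPM (SD, n = 3) and control 280.2 ± 125 CPM (SD, n = 4). In log2 units that is -0.54, SE 0.30 (edgeR adjusted p 0.927), and -0.20 without control 3. The intervals were 0.514-fold to 1.09-fold for Spp1 and 0.431-fold to 1.10-fold for Clu. The 2 genes had 3120 to 19702 reads per library, and their spread exceeded counting error. The coefficient of variation of Clu over the controls was 44.8%, where counting alone gives 1.40%. Among the scarce genes the spread and the counting share were 24.1% and 19.7% for Havcr1 and 27.0% and 17.3% for Sox9. They were 40.0% and 17.3% for Krt20, 40.3% and 12.9% for Lcn2 and 40.2% and 8.81% for Vcam1.

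**Figure D2:**
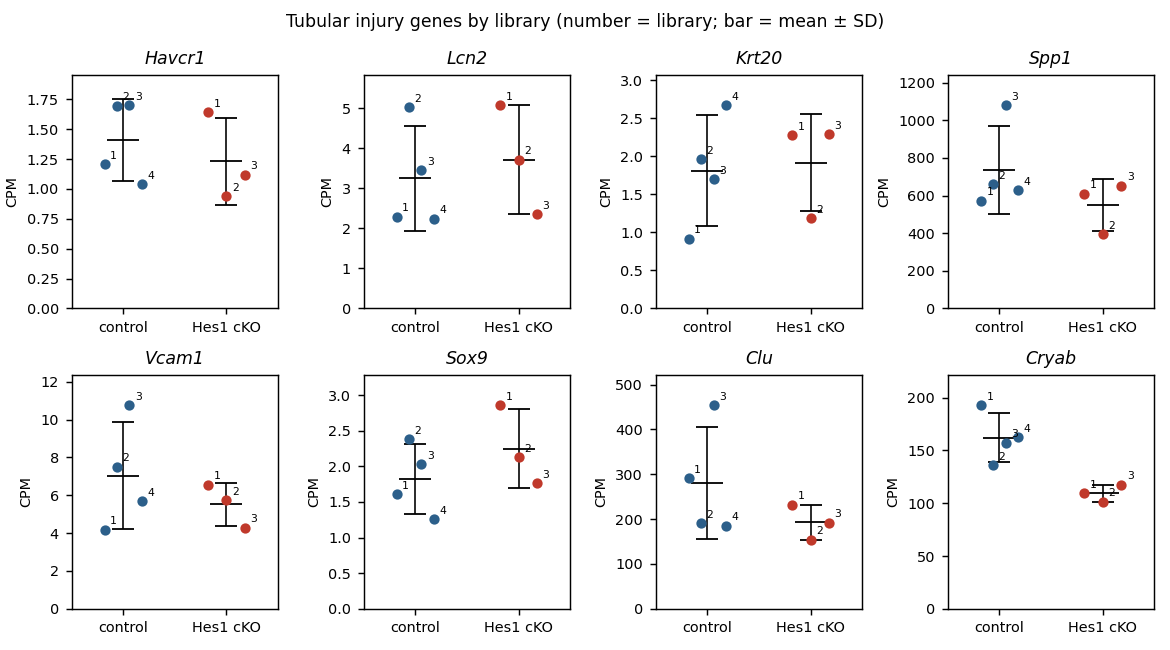
CPM of the 8 tubular injury genes in the 4 control and 3 Hes1 cKO libraries, with the library number beside each point and bars for mean ± SD, on axes that start at 0. Cryab is the panel in which the groups do not overlap (101 to 117 against 136 to 193 CPM), and control 3 is the highest point for Spp1, Clu and Vcam1.

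Cryab was at 109.7, 101 and 117 CPM in Hes1 cKO 1, 2 and 3. Control 1, 2, 3 and 4 stood at 193, 136, 157 and 163 CPM. Every mutant library lay below every control, the lowest control (control 2) being 1.16-fold above the highest mutant (Hes1 cKO 3). Hes1 cKO averaged 109.5 ± 8.07 CPM (SD, n = 3) and control 162 ± 23.5 CPM (SD, n = 4), 1.48-fold the level of the mutants. The log2 fold change of -0.57 (SE 0.12, 95% interval -0.84 to -0.30) had the unadjusted p ranked 84 of 15615, and its edgeR adjusted p of 0.184 did not pass. An exact two-sided permutation test over the 35 arrangements of the group labels gave p = 0.0571, against a smallest possible 0.0286. Of all tested genes, 3.29% were lower in Hes1 cKO without overlap, and 1 of the 8 members was.

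The call of Cryab depended on the test. DESeq2's Wald test gave an adjusted p of 0.00287, where it called 0.849% of all genes and 0.222% as lower. edgeR without the low-count filter gave 0.0236, where 0.352% of all genes were called and 0.0828% as lower. When single libraries were left out, the edgeR adjusted p ranged from 0.0856 (without control 2) to 0.846 (without Hes1 cKO 2), with log2 fold changes from -0.64 to -0.47. Summed markers of some tubule segments were also lower. Principal cell genes (8 genes) summed to 898, 759 and 1212 CPM in Hes1 cKO and to 1477, 1241, 1888 and 1679 CPM in control, and Avpr2 of this list was at 0 in at least 1 library. Among them Hsd11b2, the enzyme that inactivates corticosterone, fell by 1.12 on the log2 scale (edgeR adjusted p 0.0104), a call lost without Hes1 cKO 1 or Hes1 cKO 2. Thin limb and inner medulla genes (6 genes) summed to 494 to 667 CPM in Hes1 cKO, with overlap, and to 551 to 722 CPM in control. Of these, 5 were lower, 0 of them at an unadjusted edgeR p under 0.05, and 1 was higher at that level. Distal convoluted tubule genes (4 genes, all lower) summed to 860 to 1068 against 1055 to 1329 CPM in control. Thick ascending limb genes (5 genes, 3 lower at that level) summed to 4803 to 5382 against 4711 to 5970 CPM. Both of these sums also overlapped between the groups. The part of these segments in the Cryab level was not tested.

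**Figure D3:**
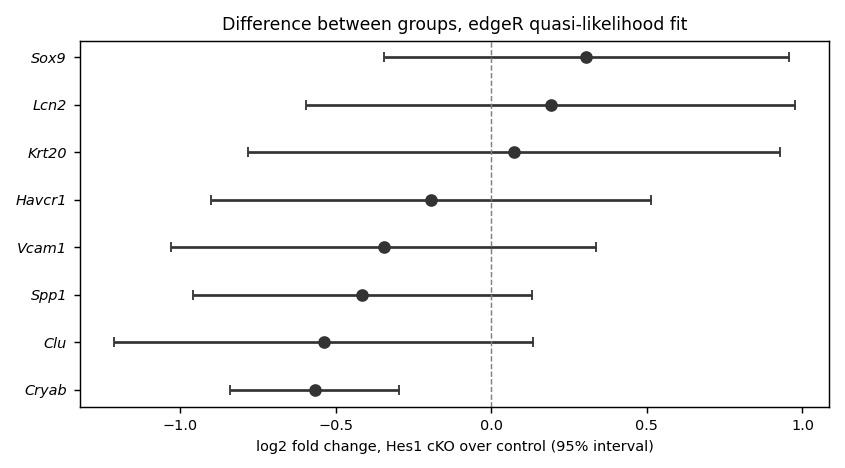
Log2 fold change of Hes1 cKO over control for each gene (points) with its 95% interval (bars) from the edgeR fit, ordered by size. Every interval except that of Cryab (-0.84 to -0.30) includes 0.

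Over the 8 genes, edgeR called 0 and limma-voom 0, and 1 (Cryab) had an unadjusted edgeR p under 0.05, as did 5.95% of all tested genes. DESeq2 called the same 1. Of the 8 log2 fold changes 3 were above and 5 below 0, with a median of -0.27, beside -0.0064 over all tested genes. Their median standard error was 0.302, against 0.143 over all genes, and that of Cryab, 0.121, was below the latter. Adjusted p-values ran from 0.184 to 0.996.

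Single libraries stood at the extremes of several members. Control 3 was highest for 4 of them (Havcr1, Spp1, Vcam1 and Clu) and Hes1 cKO 2 lowest for 4 (Havcr1, Spp1, Clu and Cryab). In control 3 the summed markers of the thick ascending limb (5970 CPM), distal convoluted tubule (1329 CPM) and principal cells (1888 CPM) were also the highest of the 7 libraries. So were those of the thin limb and inner medulla (722 CPM), while the proximal tubule sum (8501 CPM) was the lowest of the controls. The part of these segments in the high Spp1 and Clu was not tested. In Hes1 cKO 2 the summed distal convoluted tubule (860 CPM), thin limb and inner medulla (494 CPM) and principal cell (759 CPM) markers were the lowest of the 7. Its thick ascending limb sum (5382 CPM) was below only that of control 3, and its proximal tubule sum (8431 CPM) was the highest of the mutants.

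**Figure D4:**
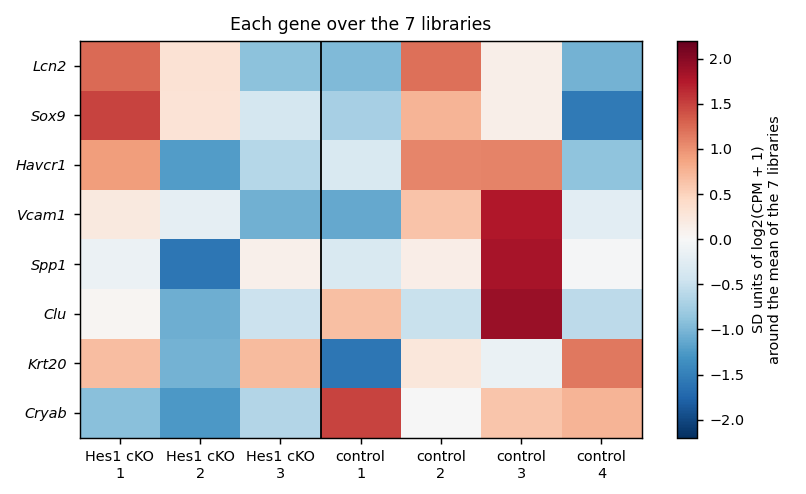
Each gene (rows) over the 7 libraries (columns), as log2(CPM + 1) around the mean of the gene in units of its own SD, red above and blue below. Control 3 is the reddest cell for Spp1, Clu and Vcam1, Hes1 cKO 2 is the bluest for Spp1, and Lcn2 and Sox9 share the order of the libraries.

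Lcn2 and Sox9 followed the same order over the 7 libraries, with Pearson's r 0.928 and Spearman's rho 1. With group means removed their r was 0.952. Which of the 28 pairs came next depended on the measure. It was Spp1 and Clu by Pearson's r (0.803, rho 0.393), Havcr1 and Clu by rho (0.75), and Havcr1 and Sox9 with group means removed (0.888). Of the 28 pairs, 19 had a positive r, with a median of 0.252. Cryab ran opposite to Sox9 (r -0.62) and Lcn2 (r -0.52). With group means removed its r was -0.55 with Sox9, -0.74 with Lcn2 and -0.66 with Vcam1, where the last had been -0.0061. These values describe 7 libraries that share their groups, and Lcn2 and Sox9 rest on 23 to 96 reads.

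For each member, the 2 genes of the most similar course over the 7 libraries were taken among 14143 genes with a mean of at least 1 CPM. For Lcn2 these were Relb (r 0.97) and Trim6 (0.959), for Sox9 Ensa (0.983) and Pxk (0.973), and for Havcr1 E230016K23Rik (0.963) and Selenok (0.956). Krt20 was closest to Bche (0.984) and Dubr (0.96), and Vcam1 to Spi1 (0.987) and Map2k7 (0.968). Spp1 was closest to Tmem17 (0.989) and the urea transporter gene Slc14a1 (0.989), Clu to Gm32031 (0.985) and Vps45 (0.977), and Cryab to Cep295 (0.985) and Pter (0.974). Between 3 and 12 genes per member reached an r of 0.95. None of these 16 genes was called by edgeR, the lowest adjusted p being 0.671 (Pter). The choice was not steady: only 5 of the 16 were also among the closest by Spearman's rho and 4 with group means removed.

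Other transcripts of an injured tubule were read together with receptors and partners of the members and with other Sox genes, in 9 lists of 84 genes. Of the 79 tested, 1 was called, higher in Hes1 cKO, and at an unadjusted p under 0.05 there were 7 higher and 1 lower, where 3.34% and 2.61% of all tested genes passed. The immediate early genes, which answer any stress within minutes, had 0 of 9 at that level, and they ran from Atf3 (log2 fold change -0.38) to Egr1 (0.41), with a list median of -0.14. Fibrinogen and complement genes (5 tested, median 0.02) and chemokine and adhesion genes (8 tested, median -0.0023) also had 0. Their extremes were Fgg (-0.40) and Cfb (0.32), and Itgb6 (-0.45) and Tnfrsf12a (0.42). The receptors and partners of the members, such as Lrp2 and Slc22a17 for Lcn2 and the integrins for Spp1 and Vcam1, ran from Timd2 (-0.44) to Axl (0.21) with 0 of 11 at that level and a median of -0.085. Such single genes leaned on single libraries: Timd2 was at -0.09 without control 1, Axl at 0.08 without Hes1 cKO 1, Itgb6 at -0.21 and Egr1 at 0.13 without Hes1 cKO 2.

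Krt18 was not called by edgeR with the low-count filter but was called by DESeq2 and by edgeR without the filter. This partner of Krt8 in simple epithelia averaged 57.6 ± 8.27 CPM in Hes1 cKO (SD, n = 3) and 34.0 ± 5.37 CPM in control (SD, n = 4), without overlap. The difference of 0.76 in log2 units, SE 0.14, had an edgeR adjusted p of 0.0858, one of 0.00281 without the filter and a DESeq2 adjusted p of 1.47e-04. Krt19 (0.51, edgeR adjusted p 0.738, named after its value was seen) was the other of 12 dedifferentiation genes under an unadjusted 0.05, and the list, with a low of -0.13 (S100a10), had a median of 0.077. Without Hes1 cKO 1, Krt19 was at 0.23 (edgeR unadjusted p 0.178). Cdkn1a, which halts the cell cycle after damage, averaged 15.3 ± 2.48 CPM in Hes1 cKO (SD, n = 3) and 9.92 ± 2.40 CPM in control (SD, n = 4), or 0.62 in log2 units with an SE of 0.20 (edgeR adjusted p 0.622). It was the 1 of 7 stress response genes at that level, in a list that reached down to Nqo1 (-0.08) and had a median of 0.14. Of the profibrotic genes (7 tested, median -0.086), 0 were called and 1 was lower at an unadjusted edgeR p under 0.05. Tgfb1, a growth factor of scarring, was highest at 0.28 (0.14 without Hes1 cKO 2).

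Heat shock and chaperone genes, among them the small heat shock class of Cryab, held the 1 called gene, which is not of that class. Hspa1a, an inducible Hsp70, averaged 44.1 ± 3.06 CPM in Hes1 cKO (SD, n = 3) and 27.7 ± 2.89 CPM in control (SD, n = 4), a rise of 0.67 in log2 units with an SE of 0.10 (edgeR adjusted p 0.0366). It lost its call in 6 of the 7 leave-one-out fits (edgeR adjusted p up to 0.218) and with the adrenal level as a covariate (0.0601). Hspa1b is a near-identical copy of it (log2 fold change 0.23, edgeR adjusted p 0.934), so the split of reads between them is uncertain. Together they averaged 138 ± 9.51 CPM in Hes1 cKO (SD, n = 3) and 107 ± 15.2 CPM in control (SD, n = 4) (exact two-sided permutation p 0.0571). The small heat shock genes, the class to which Cryab belongs, had log2 fold changes below 0 that did not pass. These were -0.12 for Hspb1, -0.19 for Hspb6, -0.17 for Hspb8 and -0.39 for Hspb2, and that of Hspb1 was 0.05 without Hes1 cKO 3. The list of 9 had a median of -0.16.

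Of 11 other Sox genes tested, 3 were higher at an unadjusted edgeR p under 0.05, where 3.34% of all tested genes were. None was called. Sox4, a progenitor factor, averaged 101 ± 8.72 CPM in Hes1 cKO (SD, n = 3) and 71.4 ± 13.5 CPM in control (SD, n = 4), or 0.49 in log2 units with an SE of 0.14 (edgeR adjusted p 0.512). Sox10 (0.97, edgeR adjusted p 0.817) and Sox12 (0.25, edgeR adjusted p 0.696) were the others, Sox4 and Sox12 being named after their values were seen. An unadjusted p under 0.05 was lost in 5 of the 7 leave-one-out fits for Sox10, in 2 for Sox12 and in 0 for Sox4. Sox8 was lowest at -0.47, and the list median was 0.11. Of the intercalated cell genes, 7 of 8 were called higher, where 0.32% of all tested genes were. An example is Foxi1, with a log2 fold change of 1.87 (edgeR adjusted p 6.3e-04). Whether the intercalated cell genes share cells with Sox4, Krt18 or Cdkn1a was not tested.

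**Figure D5:**
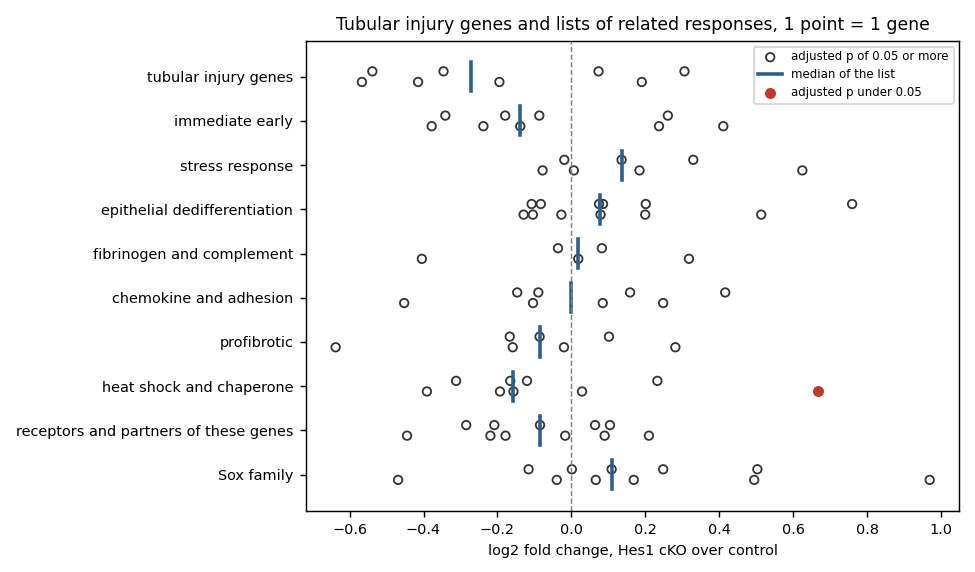
Log2 fold change of Hes1 cKO over control for every tested gene (points), with the median of each list (vertical bars). Shown are the 8 tubular injury genes and 9 lists of related responses, partners and Sox genes. The filled point is Hspa1a (0.67), and the medians lie between -0.27 and 0.14.

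Further cell types, and cycling cells, were read from their own markers. The 8 macrophage and T cell genes summed to 29.5 to 46.1 CPM in Hes1 cKO and to 38.5 to 64.6 CPM in control, with Cd3e at 0 in a library, and stroma (6 genes) to 227 to 498 against 280 to 409 CPM, with Tagln at 0 in a library. Parietal epithelium (4 genes) summed to 161 to 174 against 143 to 175 CPM, podocytes (4 genes) to 419 to 478 against 454 to 540.2 CPM and cycling cells (5 genes) to 70.4 to 91.9 against 63.4 to 99.2 CPM. The ranges of all these sums overlapped between the groups. The proximal tubule sum, the segment of Havcr1, did not overlap, at 7801 to 8431 CPM in Hes1 cKO and 8501 to 10794 CPM in control, although 0 of its 7 genes had an unadjusted p under 0.05.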

How the data were processed

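RNA from whole kidneys was sequenced as 150 bp pairs, per the labels. The submitters' processing notes name FastQC, STAR and DESeq2 and the builds mm10 and GRCm38, without roles; neither the counting program nor its strand setting is given in the sources used here. The authors deposited raw read counts per gene, without normalization. The 7 columns of 1 table whose names show a group were used (3 Hes1 cKO, 4 control); 9 columns of per-sample values in the other table, whose names show no group, were not. The members and gene lists were chosen with earlier results of these data known.

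Genes were filtered by filterByExpr (minimum count 10; 15615 of 28971 kept), scaled by TMM and tested by edgeR's quasi-likelihood test (edgeR 4.0.16, R 4.3.3), with Benjamini-Hochberg adjustment over all of them and a call at adjusted p under 0.05. DESeq2 1.42.0 and limma-voom (limma 3.58.1) were alternatives. Intervals cover 95%. Two-sided exact permutation tests used log2(CPM + 1) and all 35 arrangements of group labels. Symbols and exon lengths came from GENCODE M21 by Ensembl identifier (99.7% found), sequences from RefSeq. The fits were tested on simulated data. Named are the 8 members, Hes1, Xist, called genes of the lists (examples where many), the highest and lowest gene of each response list, and the 2 genes most like each member. The lowest gene of 1 list is not reported here.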

Additional observations from a re-analysis of the deposited data

Results flagged for a closer look

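Axl encodes a receptor with which cells take up dying neighbours and was read here among the partners of the markers. Its level in control 1 was 41.2 CPM, while controls 2, 3 and 4 had 32.5, 33.1 and 33.9 CPM. The gap to the nearest library took 0.841 of the range of the 4 controls, past Dixon's 95% limit for 4 samples. The 35 genes read this way were the 8 markers, Hes1 and the 26 list genes named with a log2 fold change, and chance alone puts about 1 in 20 past that limit. Over all 168 tested genes of the lists, the markers included, 10 were past it, among them Krt7 (0.871, control 3), picked as an example after its value was seen. Spp1 in control 3 came close, with a ratio of 0.827. With 3 libraries, the Hes1 cKO group is too small for this reading.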

How the results depend on the processing

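The adrenal covariate and the counting of called members over settings were added after seeing the data. No paired analysis was possible because the columns carry no replicate number of the titles. The count of called genes was 53, and 130 by DESeq2's Wald test, 102 without a low-count filter and 25 to 47 when 1 library was left out (27 without Hes1 cKO 1, 25 without Hes1 cKO 2). The count of called members was 0, and 1 by DESeq2 and 1 without the filter, both times Cryab (log2 fold changes -0.57 and -0.57). It was 0 in each of the other settings. Lcn2 turned negative without Hes1 cKO 1, with a range of -0.10 to 0.48 when 1 library was left out, and Krt20 without 3 of the libraries, with a range of -0.14 to 0.33. The other 6 members and Hes1 kept their direction in all 15 alternatives. Of the other genes, Nqo1 turned without control 2 (range with 1 library left out -0.15 to 0.023), Fgg without Hes1 cKO 3 or control 2 (-0.90 to 0.19, with 0.05 without Hes1 cKO 3) and Hspb1 without Hes1 cKO 3 (-0.40 to 0.053). For the genes most like the members, 5 of 16 were shared with Spearman's rho and 4 of 16 with deviations from the group means. The cause of these changes was not tested. Of 26 other genes named with a log2 fold change, 18 moved by over 1.5 times when some library was left out, as did 7 of the 8 members (all but Cryab). Havcr1, Krt20, Sox9 and Lcn2 had 16 to 96 reads per library.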
